A study of Mus musculus with 12 samples.

Results

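The 10 genes described here act at the entry of pyruvate into mitochondrial metabolism, in the mouse kidney after ischemia and reperfusion. They were chosen by name: the pyruvate dehydrogenase kinases Pdk1, Pdk2, Pdk3 and Pdk4, the phosphatase subunit Pdp2, the complex subunits Pdha1, Pdhb and Dlat, and the mitochondrial pyruvate carrier subunits Mpc1 and Mpc2. They are 10 of the 25553 genes of the expression table, and all 10 passed the filter on low values that left 12357 genes for testing. RNA was sequenced from frozen kidneys of 12 wild-type (WT) mice, 3 in each of 4 groups, and strain, sex and age are not given in the labels. The normoxic sham group had a sham operation without preconditioning. The normoxic RIRI group (renal ischemia-reperfusion injury) had both renal pedicles clamped for 45 min and was sampled after 12 h of blood flow. The preconditioned sham and preconditioned RIRI groups first spent 2 h, 4 h and 8 h at 8% oxygen on days 1, 2 and 3. The study asks how such hypoxic preconditioning alters the injured kidney.

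Pyruvate dehydrogenase joins glycolysis to the citric acid cycle by turning pyruvate into acetyl-CoA. The kinases phosphorylate its E1 alpha subunit and switch the complex off, and the phosphatases remove the phosphate and switch it on. The kinases differ in control: PDK4 is known to rise in fasting and under fatty acids and glucocorticoids, PDK1 is a known target of the hypoxia factor HIF-1, and PDK2 is widely expressed. The proximal tubule, the main cell mass of the kidney cortex, is known to live largely on fatty acids, lactate and other oxidised fuels.

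Levels are given as FPKM (fragment counts divided by gene length and library depth), which are per length, so that different genes can be set side by side. Libraries held 33096854 to 35707662 recovered reads, and the 10 genes had between 390 reads (Pdp2) and 39728 reads (Pdk4), both in normoxic RIRI replicate 2. Differences are log2 fold changes of FPKM + 1 with their standard error (SE), and p values are those of limma, adjusted by Benjamini-Hochberg over all 12357 genes, with a call at an adjusted p under 0.05. The labels give a replicate number but do not say how the mice were housed or operated, so p values measure the spread between these samples. Kidney identity was checked by whether the highest kidney of each group reached an FPKM of 1 for each marker. All 10 proximal tubule and all 6 thick ascending limb markers did so in each group. In normoxic RIRI replicate 2 the thick ascending limb marker Bsnd was at 0.770. Of 8 distal tubule and collecting duct markers, 1 did not reach it in normoxic RIRI (Slc4a1, 0.240 to 0.348).

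The promoters of the kinases that moved in opposite directions, Pdk4 and Pdk2, are shown here with that of Pdk1, since PDK1 is the kinase known as a HIF-1 target. Each run is the 250 bases before the RefSeq start site in GRCm38.p6, the assembly behind mm10, written on the strand of the gene. Pdk1 and Pdk2 each have a second RefSeq start site, whose window held no motif searched. Capitals mark matches to the motifs searched on both strands. These were ACGTG and GCGTG, the forms of the hypoxia response element core, AGGTCA, a nuclear receptor half-site, GTAAACA, a forkhead motif, and TGACG, part of the cAMP response element. TGACG can overlap ACGTG by its last letters.
Pdk4 (chr6:5496279-5496528, minus strand): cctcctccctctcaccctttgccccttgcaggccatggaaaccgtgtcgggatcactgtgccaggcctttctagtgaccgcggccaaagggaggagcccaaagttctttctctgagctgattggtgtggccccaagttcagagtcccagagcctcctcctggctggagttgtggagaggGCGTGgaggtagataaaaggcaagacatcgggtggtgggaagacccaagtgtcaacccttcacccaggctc
Pdk2 (chr11:95041372-95041621, minus strand): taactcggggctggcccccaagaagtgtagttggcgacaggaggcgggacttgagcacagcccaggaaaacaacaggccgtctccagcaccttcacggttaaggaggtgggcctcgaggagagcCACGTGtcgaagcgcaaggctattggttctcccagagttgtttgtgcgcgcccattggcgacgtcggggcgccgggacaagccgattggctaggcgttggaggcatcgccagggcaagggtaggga
Pdk1 (chr2:71872974-71873223, plus strand): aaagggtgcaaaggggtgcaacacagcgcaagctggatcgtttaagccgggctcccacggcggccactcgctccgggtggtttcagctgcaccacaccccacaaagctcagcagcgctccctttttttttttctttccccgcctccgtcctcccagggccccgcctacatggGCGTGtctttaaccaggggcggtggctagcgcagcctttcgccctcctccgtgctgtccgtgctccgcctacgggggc
The Pdk4 run held 1 GCGTG, starting 71 bases before the start site, and no other motif searched. The Pdk1 run held 1 GCGTG 78 bases before the start, and a second match spans the start site itself. The Pdk2 run, added after its values were seen, held ACGTG on both strands as the palindrome CACGTG. Such matches are common: over windows from 250 bases before to 50 bases after the start, GCGTG was in 32.4% and ACGTG in 19.6% of 32851 RefSeq promoters. AGGTCA was in 16.3%, TGACG in 20.8% and GTAAACA in 3.65% of them. The 10 genes had 13 such windows, of which 7 held GCGTG (Pdk1, Pdk3, Pdk4, Pdha1, Pdhb, Mpc1 and Mpc2) and 4 held ACGTG (Pdk2, Pdk3, Pdhb and Pdp2). TGACG was in 5 windows, AGGTCA in 1 (Mpc1) and GTAAACA in 0. A match is a string of letters and was not tested as a binding site.

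After injury in normoxic mice, Pdk4 rose and the other 9 genes fell. All 10 genes had groups that did not overlap, where 74.3% of all genes tested did so, and 41.6% of all genes tested were called higher and 30.1% lower. The median log2 fold change of the 10 genes was -0.73, against 0.10 over all genes. In bulk tissue such as this, fewer cells of a type and less RNA per cell cannot be told apart. The summed FPKM of the 10 proximal tubule markers was 6984 to 7573 in normoxic sham and 2246 to 2751 in normoxic RIRI, and its part in the 9 decreases was not tested.

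**Figure D1:**
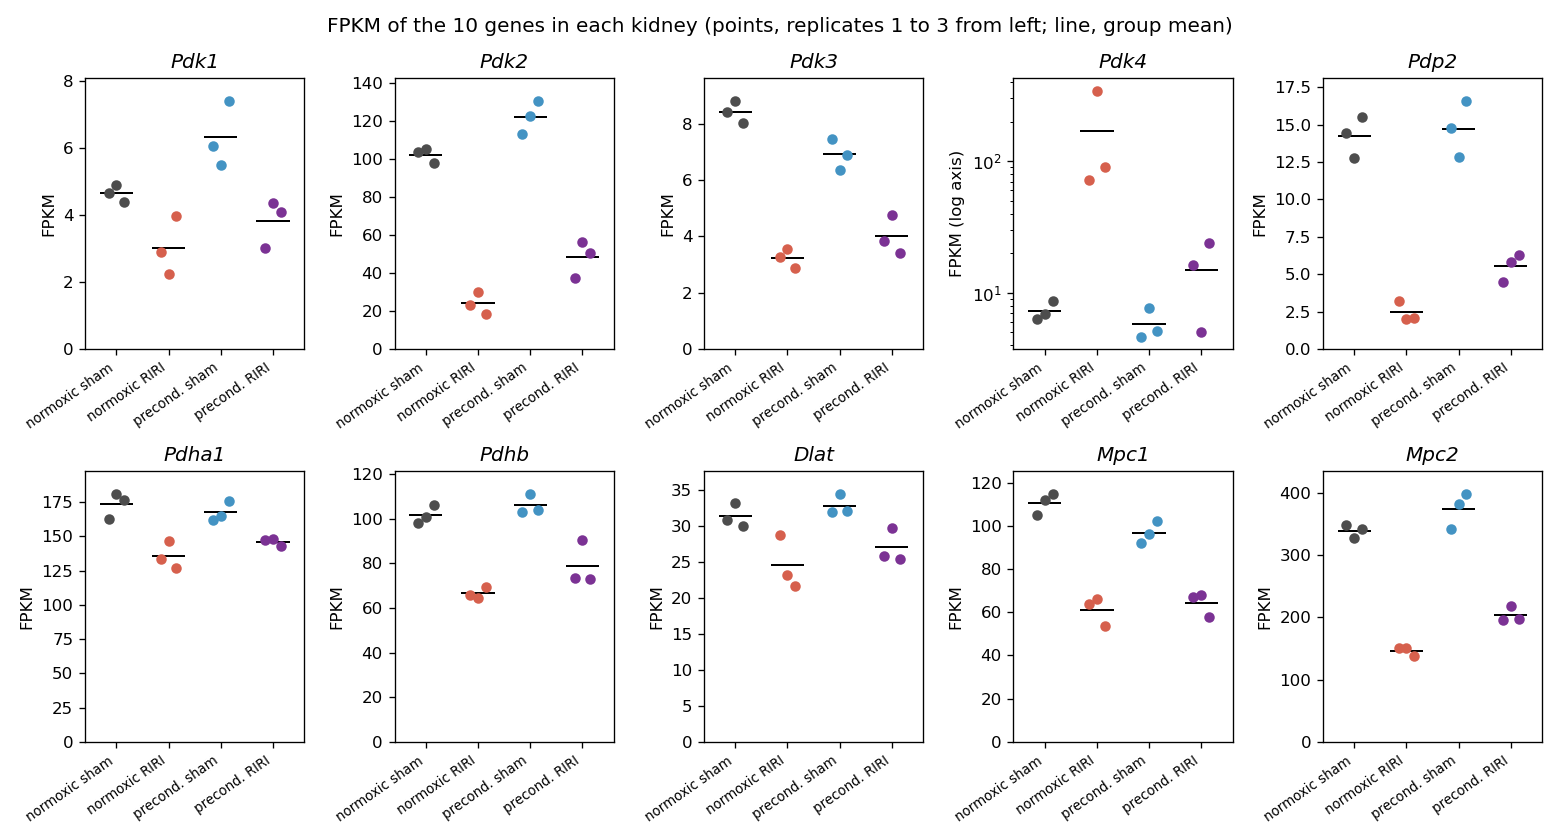
FPKM of each of the 10 genes (vertical axes, from 0 except for the log axis of Pdk4) in the 4 groups; points are single kidneys and lines are means of 3. Pdk4 reaches 71.5 to 344 in normoxic RIRI, while the other 9 genes have their lowest mean there.

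Pdk4 (chromosome 6, 5483351 to 5496278), the kinase known from fasting, had FPKM of 6.33, 6.89 and 8.62 in the 3 normoxic sham kidneys. It had 71.5, 344 and 91.2 in normoxic RIRI, 4.64, 7.63 and 5.13 in preconditioned sham, and 16.2, 5.04 and 23.8 in preconditioned RIRI. All 3 normoxic RIRI kidneys were thus far above every other kidney, with replicate 2 highest, while preconditioned RIRI replicate 2 lay within the range of the sham groups. The increase in normoxic injury was 4.01 ± 0.56 on the log2 scale (SE, n = 3 per group, limma adjusted p = 4.68e-05), and the means differed 23.2-fold. By size it was number 39 of the 12357 genes. Without normoxic RIRI replicate 2 the increase was 3.31.

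Preconditioned RIRI kidneys had less Pdk4 than normoxic RIRI kidneys, by -3.27 ± 0.56 (SE, n = 3 per group, limma adjusted p = 0.000973). Their mean was 8.89% of that in normoxic RIRI, and only 1 gene of the 12357 had a more negative value in this comparison. With both replicate 2 RIRI libraries left out, a comparison added after the values were seen, the difference was -1.99 (limma adjusted p = 0.000395). Against their own sham group, preconditioned RIRI kidneys had a Pdk4 difference of 1.04 ± 0.56, which was not called (limma adjusted p = 0.142). That value rests on 1 library: without preconditioned RIRI replicate 2 it was 1.63 and called (limma adjusted p = 0.0216).

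Pdk2 (chromosome 11, 95026258 to 95041371), the kinase with the highest level in sham kidneys, moved the other way. Its FPKM was 103, 105 and 97.5 in normoxic sham and 23.3, 29.9 and 18.4 in normoxic RIRI. It was 113, 122 and 130 in preconditioned sham and 37.4, 56.4 and 50.5 in preconditioned RIRI. No pair of neighbouring groups in this order overlapped: preconditioned sham was highest, then normoxic sham, preconditioned RIRI and normoxic RIRI. Pdk2 fell by 2.07 ± 0.17 in normoxic injury (SE, n = 3 per group, limma adjusted p = 4.49e-07), a 4.27-fold lower mean. In preconditioned RIRI it was 0.99 ± 0.17 higher than in normoxic RIRI (limma adjusted p = 0.000844), with a mean 2.01 times as high.

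Pdk1 (chromosome 2, 71873215 to 71903858), known as a HIF-1 target, fell and did not rise after ischemia. Its FPKM was 4.66, 4.91 and 4.39 in normoxic sham and 2.88, 2.23 and 3.96 in normoxic RIRI, a difference of -0.51 ± 0.16 (SE, n = 3 per group, limma adjusted p = 0.0111). It was 6.04, 5.49 and 7.40 in preconditioned sham and 3.02, 4.36 and 4.09 in preconditioned RIRI. The 2 RIRI groups overlapped, and their difference of 0.27 was not called (limma adjusted p = 0.181), although it was without normoxic RIRI replicate 3 (limma adjusted p = 0.0382).

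Pdk3 (chromosome X, 93764616 to 93832150), a further isoform, had FPKM of 8.42, 8.81 and 8.03 in normoxic sham and 3.26, 3.56 and 2.87 in normoxic RIRI. It fell by 1.16 ± 0.10 (SE, n = 3 per group, limma adjusted p = 1.17e-06). Preconditioned sham kidneys had 7.48, 6.36 and 6.91, and preconditioned RIRI kidneys 3.84, 4.76 and 3.39. The RIRI groups overlapped, and their difference of 0.23 was not called (limma adjusted p = 0.0901) except without preconditioned RIRI replicate 3 (limma adjusted p = 0.0339).

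The makeup of the kinase transcripts turned over with injury. Pdk2 held 82.2% to 84.2% of the summed FPKM of the 4 kinases in normoxic sham, and Pdk4 held 5.15% to 7.27%. In normoxic RIRI Pdk4 held 70.8%, 90.6% and 78.3%, and Pdk2 23.1%, 7.89% and 15.8%. Preconditioned sham kidneys were close to normoxic sham, with Pdk2 at 86.2% to 87.0% and Pdk4 at 3.42% to 5.38%. Preconditioned RIRI kidneys stood between, with Pdk4 at 26.8%, 7.13% and 29.1% and Pdk2 at 61.9%, 80.0% and 61.8%. Pdk2 was thus the leading kinase in 3 of 3 preconditioned RIRI kidneys and Pdk4 in 3 of 3 normoxic RIRI kidneys. These shares are descriptions with no test.

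The summed FPKM of the 4 kinases was 119 to 126 in normoxic sham and 131 to 150 in preconditioned sham. In normoxic RIRI it was 101, 380 and 116, so that in replicates 1 and 3 the rise of Pdk4 came with a sum slightly below that of normoxic sham. In preconditioned RIRI it was 60.5, 70.6 and 81.8, below every other kidney. Without Pdk4 the sum was 110 to 119 in normoxic sham, 25.2 to 35.7 in normoxic RIRI, 127 to 145 in preconditioned sham and 44.3 to 65.5 in preconditioned RIRI.

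**Figure D2:**
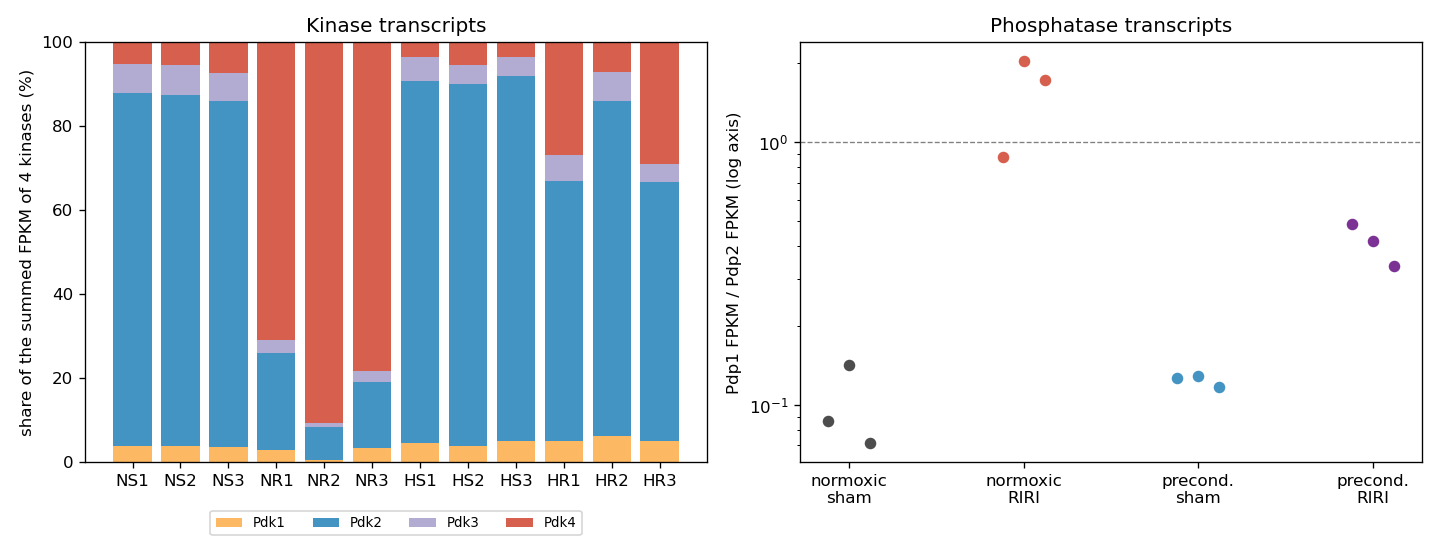
Left, share of Pdk1 to Pdk4 in their summed FPKM (percent) in each kidney. NS is normoxic sham, NR normoxic RIRI, HS preconditioned sham and HR preconditioned RIRI, numbered by replicate. Right, ratio of Pdp1 to Pdp2 FPKM in the kidneys of each group (log axis, dashed line at equal levels). Pdk2 makes up most of the sum in every kidney but the 3 of normoxic RIRI, where Pdk4 takes 70.8% to 90.6%.

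The phosphatase Pdp2 (chromosome 8, 104591472 to 104599026), a catalytic subunit that reactivates the complex, had the most negative log2 value of the 10 genes in normoxic injury. Its FPKM was 14.4, 12.7 and 15.5 in normoxic sham, 3.18, 2.03 and 2.10 in normoxic RIRI, 14.7, 12.8 and 16.6 in preconditioned sham, and 4.47, 5.81 and 6.29 in preconditioned RIRI. The sham groups overlapped each other, and both RIRI groups lay below them without overlap between the 2. Pdp2 fell by 2.16 ± 0.15 in normoxic injury (SE, n = 3 per group, limma adjusted p = 1.3e-07), a 5.84-fold lower mean. It was 0.93 ± 0.15 higher in preconditioned than in normoxic RIRI (limma adjusted p = 0.000573), a mean 2.27 times as high.

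The other catalytic phosphatase, Pdp1, is a low transcript here and moved the opposite way. Its FPKM was 1.25, 1.80 and 1.11 in normoxic sham, 2.79, 4.11 and 3.59 in normoxic RIRI, 1.86, 1.65 and 1.94 in preconditioned sham, and 2.17, 2.44 and 2.12 in preconditioned RIRI. It rose by 0.91 ± 0.13 in normoxic injury (SE, n = 3 per group, limma adjusted p = 4.17e-05) and was lower by -0.46 ± 0.13 in preconditioned than in normoxic RIRI (limma adjusted p = 0.0125). The ratio of Pdp1 to Pdp2 went from 0.0714 to 0.142 in normoxic sham to 0.877, 2.02 and 1.71 in normoxic RIRI, and was 0.336 to 0.486 in preconditioned RIRI. The phosphatase regulatory subunit Pdpr fell by 0.83 ± 0.07 (SE, limma adjusted p = 7.13e-07) and was higher by 0.30 ± 0.07 in preconditioned RIRI (limma adjusted p = 0.00548).

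Kinase and phosphatase transcripts were also set against each other, as the summed FPKM of Pdk1 to Pdk4 over that of Pdp1 and Pdp2. The ratio was 7.13 to 8.64 in normoxic sham and 7.91 to 9.79 in preconditioned sham. It was 16.9, 61.8 and 20.5 in normoxic RIRI and 8.56 to 9.72 in preconditioned RIRI. Preconditioned RIRI kidneys thus lay within the range of preconditioned sham, although both the kinase and the phosphatase sums were lower in them. Transcript ratios are not enzyme activities, and phosphorylation of the complex was not measured in this table.

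The subunits Pdha1, Pdhb and Dlat were each called lower in normoxic injury. Pdha1 (chromosome X, 160122219 to 160138430), the E1 alpha subunit that the kinases phosphorylate, had FPKM of 162, 181 and 177 in normoxic sham and 133, 146 and 127 in normoxic RIRI. It fell by 0.35 ± 0.07 (SE, n = 3 per group, limma adjusted p = 0.000781), to 78.1% of the sham mean. It was 162, 165 and 176 in preconditioned sham and 148, 148 and 143 in preconditioned RIRI. Every RIRI kidney was below every sham kidney, and preconditioned RIRI lay above normoxic RIRI in all but 1 pair of kidneys, a difference of 0.11 that was not called (limma adjusted p = 0.233).

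Pdhb (chromosome 14, 8165991 to 8173303), the E1 beta subunit, had FPKM of 98.0, 101 and 106 in normoxic sham, 65.7, 64.4 and 69.5 in normoxic RIRI, 103, 111 and 104 in preconditioned sham, and 73.3, 90.2 and 72.9 in preconditioned RIRI. It fell by 0.60 ± 0.08 (SE, n = 3 per group, limma adjusted p = 4.69e-05). The RIRI groups did not overlap, with a difference of 0.23 ± 0.08 (limma adjusted p = 0.0429), but this call was lost in 16 of 22 alternatives. It was lost, for example, without preconditioned RIRI replicate 2, the kidney with 90.2, and leaving out any of 10 of the 12 libraries gave adjusted p values of 0.0512 to 0.162.

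Dlat (chromosome 9, 50634633 to 50659780), the E2 acetyltransferase core, had FPKM of 30.9, 33.2 and 30.0 in normoxic sham and 28.8, 23.2 and 21.7 in normoxic RIRI. It fell by 0.35 ± 0.10 (SE, n = 3 per group, limma adjusted p = 0.00806). It was 32.0, 34.5 and 32.1 in preconditioned sham and 25.9, 29.8 and 25.4 in preconditioned RIRI, which overlapped normoxic RIRI. That difference of 0.14 was not called (limma adjusted p = 0.282), except without normoxic RIRI replicate 1 (limma adjusted p = 0.0319).

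Of the 2 remaining components, Dld, the E3 subunit shared with other dehydrogenases, fell by 0.54 ± 0.08 in normoxic injury (SE, n = 3 per group, limma adjusted p = 4.42e-05). Pdhx, the E3-binding protein, was at 17.3, 17.1 and 16.2 in normoxic sham and 18.0, 18.1 and 17.8 in normoxic RIRI, and was not called (0.09 ± 0.07, limma adjusted p = 0.257). Pdhx was thus the one component of the complex not called lower, while E1, E2 and E3 transcripts were.

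The carrier genes encode the 2 subunits through which pyruvate enters mitochondria. Mpc1 (chromosome 17, 8283787 to 8297667) had FPKM of 105, 112 and 115 in normoxic sham, 63.6, 66.3 and 53.7 in normoxic RIRI, 92.1, 96.1 and 102 in preconditioned sham, and 66.8, 67.8 and 57.9 in preconditioned RIRI. It fell by 0.85 ± 0.09 (SE, n = 3 per group, limma adjusted p = 5.4e-06). The RIRI groups overlapped, and their difference of 0.07 ± 0.09 was not called (limma adjusted p = 0.566) and changed sign when libraries were rescaled by median ratios.

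Mpc2 (chromosome 1, 165461260 to 165481218), the most abundant of the 10 transcripts in sham kidneys, had FPKM of 348, 327 and 342 in normoxic sham and 151, 151 and 137 in normoxic RIRI. It had 342, 382 and 398 in preconditioned sham and 196, 219 and 197 in preconditioned RIRI. The decrease in normoxic injury was -1.21 ± 0.08 (SE, n = 3 per group, limma adjusted p = 7.92e-08). Preconditioned RIRI was 0.48 ± 0.08 above normoxic RIRI without overlap (limma adjusted p = 0.000669). The ratio of Mpc2 to Mpc1 was 2.93 to 3.31 in normoxic sham, 2.28 to 2.56 in normoxic RIRI, 3.72 to 3.98 in preconditioned sham and 2.93 to 3.41 in preconditioned RIRI. In both oxygen settings it was lower after injury in every kidney.

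Between the injured groups, Pdk2, Pdp2, Pdhb and Mpc2 were higher with preconditioning, Pdk4 was lower, and 5 of the 10 genes were not called. Over all genes 24.7% were called higher and 17.4% lower, and 47.7% had groups that did not overlap, against 5 of the 10. The median difference was 0.23, against 0.06 over all genes. In each of the 5 the sign was opposite to that of normoxic injury, but both comparisons share the normoxic RIRI libraries. The proximal tubule marker sum was 2246 to 2751 in normoxic and 2720 to 3183 in preconditioned RIRI, and 6 of the 10 markers were called higher (median 0.56). All 6 thick ascending limb markers were called higher as well (median 2.16), as were 5 of 8 markers of the distal tubule and collecting duct (median 1.10), with 0 of either list called lower. The part of these tubule segments in the higher values of Pdk2, Pdp2, Pdhb and Mpc2 was not tested.

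Preconditioning alone left the 10 genes without a call. In preconditioned against normoxic sham kidneys limma called 0 of the 10, with 2 at an unadjusted p under 0.05, and limma voom on recovered reads called 0 as well, also with 2 at an unadjusted p under 0.05. Over all genes 0.186% were called higher and 0.235% lower. Those 2 genes were Pdk1, whose mean was 1.36 times that of normoxic sham (0.36 ± 0.16, unadjusted p = 0.0386, limma adjusted p = 0.324), and Pdk3, at 82.1% (-0.25 ± 0.10, unadjusted p = 0.0321, limma adjusted p = 0.303). Groups did not overlap for Pdk1, Pdk2, Pdk3 and Mpc1, as for 29.4% of all genes. A p that misses the threshold does not show that the sham groups were alike.

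Injury in preconditioned mice lowered 9 of the 10 genes against preconditioned sham and raised none by the test. Over all genes 33.0% were called higher and 19.4% lower, and groups did not overlap for 63.3%, against 9 of the 10. Pdk2 fell by 1.34 ± 0.17, Pdp2 by 1.27 ± 0.15, Mpc2 by 0.87 ± 0.08, Pdk3 by 0.67 ± 0.10 and Pdk1 by 0.60 ± 0.16 (SE, n = 3 per group). Mpc1 fell by 0.59 ± 0.09 and Pdhb by 0.43 ± 0.08. The adjusted p values of limma for these 7 genes ran from 4.4e-06 (Mpc2) to 0.00675 (Pdk1). Pdha1 (-0.20 ± 0.07, limma adjusted p = 0.0359) and Dlat (-0.27 ± 0.10, limma adjusted p = 0.0379) were near the threshold and each lost the call in 7 of 22 alternatives, 6 of them the omission of 1 library. For Pdha1 these were each of the 6 preconditioned libraries, with adjusted p values up to 0.127, and for Dlat normoxic sham replicate 1, each preconditioned sham library and preconditioned RIRI replicates 1 and 3, with values up to 0.119.

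The difference between the injury effects was tested directly as an interaction, the effect in preconditioned minus that in normoxic mice. It was called for 5 of the 10 genes, 4 with a positive and 1 with a negative value, against 11.3% and 12.6% of all genes. Pdk4 had the value furthest from 0 among the 10, -2.97 ± 0.79 (SE, limma adjusted p = 0.0202), and again only 1 gene of all tested had a more negative one. Without both replicate 2 RIRI libraries it was -1.69 (limma adjusted p = 0.00537). Pdp2 had 0.89 ± 0.21 (limma adjusted p = 0.0109), Pdk2 0.73 ± 0.23 (limma adjusted p = 0.0413), Pdk3 0.49 ± 0.15 (limma adjusted p = 0.0335) and Mpc2 0.34 ± 0.11 (limma adjusted p = 0.0426). For these 5 genes the injury effect was smaller in size after preconditioning.

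The interaction was not called for Pdk1 (-0.09 ± 0.22), Pdha1 (0.16), Pdhb (0.18), Dlat (0.07) and Mpc1 (0.26), with limma adjusted p values of 0.164 to 0.793. The call for Pdp2 was kept in all 21 alternatives and that for Pdk4 in 20, the exception being no filter on low values (limma adjusted p = 0.0648). Those for Pdk2, Pdk3 and Mpc2 were lost in 11, 8 and 12 of 21. For Pdk2 this was so without any single library but normoxic RIRI replicate 2 or preconditioned RIRI replicate 1 (adjusted p = 0.0561 to 0.0941). The count of 4 positive calls became 1 without any one of the normoxic sham libraries, normoxic RIRI replicate 3, preconditioned sham replicate 2 or preconditioned RIRI replicate 2, and 2 without preconditioned sham replicate 1 or 3.

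**Figure D3:**
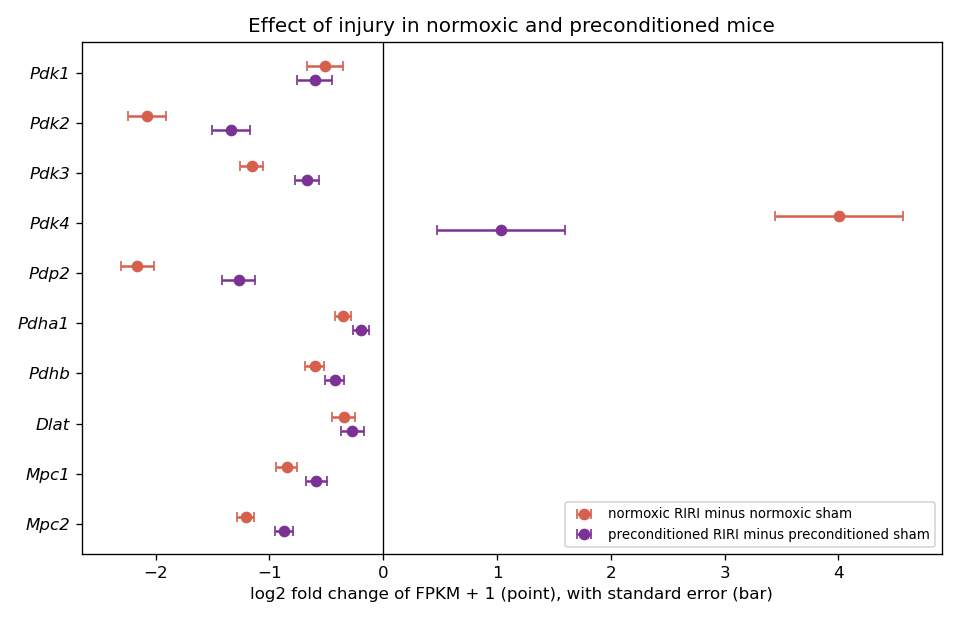
Injury effect as log2 fold change of FPKM + 1 (horizontal axis, points with SE as bars) for each of the 10 genes (vertical axis). The 2 colours are normoxic and preconditioned mice, each RIRI against its own sham group, and the vertical line marks no change. Pdk4 has 4.01 in normoxic and 1.04 in preconditioned mice, and the decreases of Pdp2 (-2.16 and -1.27) and Pdk2 (-2.07 and -1.34) are smaller in preconditioned mice.

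Around the complex, genes that make or move pyruvate and lactate were counted from a list of 11. In normoxic injury 3 were called higher and 6 lower, and the median was -0.46, where 41.6% of all genes were called higher and 30.1% lower. Slc5a12 and Slc5a8, sodium-coupled carriers that take up lactate and pyruvate from the tubular fluid, changed by -3.89 ± 0.26 and -2.94 ± 0.19 (SE, limma adjusted p = 1.02e-07 and 9.95e-08). The lactate and pyruvate carrier Slc16a7 fell by 2.38 ± 0.16, and Ldhb, the lactate dehydrogenase subunit of oxidative tissues, by 0.82 ± 0.07. In preconditioned against normoxic RIRI, 6 of the 11 were called higher and 2 lower, where 24.7% and 17.4% of all genes were. Slc5a12 had the smallest adjusted p, with FPKM of 4.57, 2.99 and 2.71 in normoxic RIRI and 17.5, 41.3 and 20.9 in preconditioned RIRI (2.56 ± 0.26, limma adjusted p = 3.93e-05). Slc5a12 also stands on the proximal tubule marker list. Pklr, a pyruvate kinase of liver and kidney, was at 12.7, 5.70 and 12.5 in normoxic RIRI and 27.5, 25.2 and 29.7 in preconditioned RIRI (1.41 ± 0.22, limma adjusted p = 0.000515).

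Among 8 genes of other fates and sources of pyruvate, 2 were called higher and 4 lower in normoxic injury. In preconditioned against normoxic RIRI 3 were called higher and 0 lower. With so few genes, such counts are read only beside the shares of all genes, 41.6% higher and 30.1% lower in the first comparison and 24.7% and 17.4% in the second. Pcx, pyruvate carboxylase, fell by 0.78 ± 0.14 in normoxic injury (SE, limma adjusted p = 0.000365). Of the same list, Me1 and Me3 fell and Gpt2 rose in that comparison, each with a smaller adjusted p. Of 7 genes that use acetyl-CoA or make it from acetate, 1 was called higher and 5 lower, and 3 were called higher and 0 lower in preconditioned against normoxic RIRI. Acss2, which makes acetyl-CoA from acetate, fell from 126 to 134 in normoxic sham to 13.1 to 18.7 in normoxic RIRI and was 33.9 to 55.7 in preconditioned RIRI.

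A list of 14 genes known to rise with Pdk4 in fasting or glucocorticoid excess had 13 tested. In normoxic injury 11 were called higher and 0 lower, with a median of 1.59 against 0.10 over all genes, of which 41.6% were called higher. Plin2, which coats lipid droplets, went from 4.76 to 5.73 in normoxic sham to 861, 1262 and 1427 (7.51 ± 0.51, SE, limma adjusted p = 1.26e-07). Acot2, a mitochondrial acyl-CoA thioesterase, rose by 2.53 ± 0.24, Angptl4, an inhibitor of lipoprotein lipase, by 2.39 ± 0.35, and Fgf21, a fasting hormone, by 2.84 ± 0.26. In preconditioned against normoxic RIRI 0 were called higher and 9 lower, with a median of -0.98, where 17.4% of all genes were called lower. The 3 preconditioned RIRI kidneys had Plin2 at 339, 61.1 and 356.

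The order of single kidneys in that list was like that of Pdk4. Normoxic RIRI replicate 2, highest for Pdk4, was highest of its group for 9 of the 13 genes, as for 25.7% of all genes tested. Preconditioned RIRI replicate 2, lowest for Pdk4, was lowest of its group for 12 of the 13, as for 35.4% of all genes. This was noticed after the values were seen and is a description.

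None of the factors known to act on Pdk4 was called higher with it. Of 13 listed 12 were tested, and in normoxic injury 0 were called higher and 9 lower, with a median of -0.71, where 30.1% of all genes were called lower. Hnf4a, a hepatocyte and proximal tubule factor, fell from 194 to 225 to 57.9, 48.9 and 36.8 (-2.15 ± 0.15, SE, limma adjusted p = 1.75e-07). The coactivator Ppargc1a fell by 1.23 ± 0.10, the nuclear receptor Esrra by 1.43 ± 0.15 and the glucocorticoid-induced factor Klf15 by 2.04 ± 0.23. In preconditioned against normoxic RIRI 7 were called higher and 0 lower, where 24.7% of all genes were called higher, and Hnf4a was at 124, 160 and 142 there (1.57 ± 0.15, limma adjusted p = 3.14e-05).

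Pdk4 and Pdha1 were also compared with every other tested gene by the shape of their profile over the 12 libraries, as the root mean square distance between log2(FPKM + 1) values centred on each gene's mean. Nearest to Pdk4 were Angptl7 (0.59), Sphk1, sphingosine kinase (0.62), Retnlg (0.64), AA467197 (0.67) and Saa3, an acute phase protein (0.71), where the median gene was at 1.83. All 5 had their highest value in normoxic RIRI replicate 2, which follows in part from their choice by nearness to Pdk4 over these same libraries. Angptl7 had 58.6, 98.8 and 32.9 and Sphk1 28.8, 70.8 and 38.7 in the 3 kidneys of that group. Retnlg is on the neutrophil marker list. Nearest to Pdha1 were Chchd2 (0.055), Rb1cc1 (0.058), Itch (0.063), Ube2r2 (0.067) and Gde1 (0.067), where the median gene was at 0.32. A gene with the same value in all 12 libraries would lie at 0.157 from Pdha1 and at 1.84 from Pdk4.

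**Figure D4:**
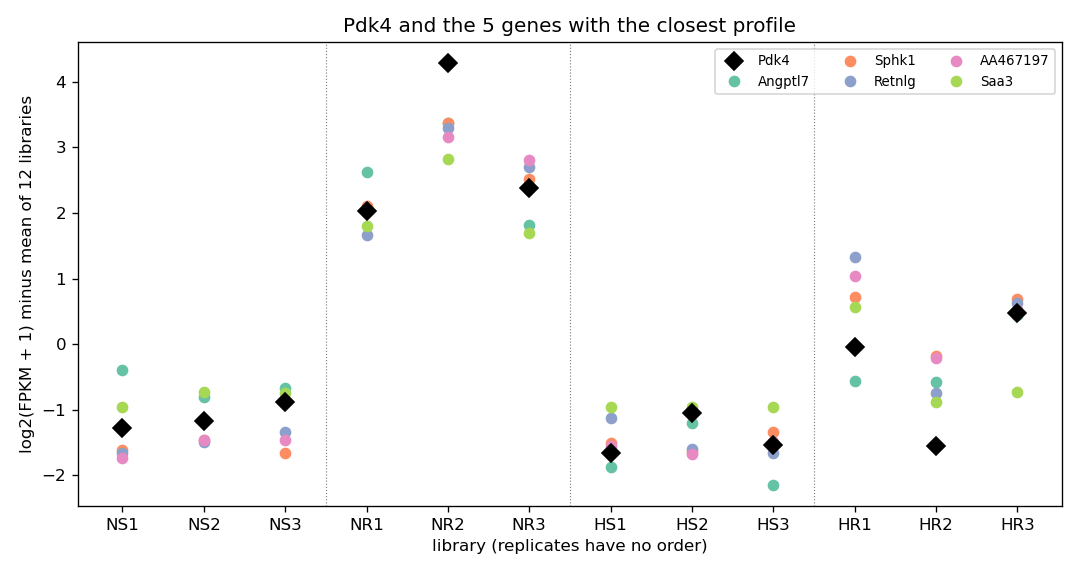
Centred log2(FPKM + 1) (vertical axis) in the 12 kidneys (horizontal axis; NS normoxic sham, NR normoxic RIRI, HS preconditioned sham, HR preconditioned RIRI, numbered by replicate) for Pdk4 and the 5 genes with the nearest profiles. All 6 genes are highest in normoxic RIRI replicate 2, and the 5 were picked as nearest to Pdk4 over these same kidneys.

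Markers of other cell types moved to different degrees along the same comparisons. Of 5 red blood cell markers, 0 were called in normoxic injury and 0 in preconditioned against normoxic RIRI. Of 5 endothelial markers, 2 were called higher and 1 lower in normoxic injury, and 1 higher and 2 lower between the injured groups. The summed FPKM of 7 neutrophil markers was 2.26 to 15.1 in normoxic sham, 132 to 293 in normoxic RIRI, 1.73 to 4.39 in preconditioned sham and 23.6 to 111 in preconditioned RIRI. All 7 were called higher in normoxic injury and all 7 lower in preconditioned against normoxic RIRI, and replicate 2 had the highest sum of normoxic RIRI and the lowest of preconditioned RIRI, as for Pdk4. The 7 macrophage markers summed to 72.3 to 84.0, 159 to 217, 73.2 to 75.9 and 110 to 116 in the same order of groups, but they did not move together. In normoxic injury 4 were called higher and 1 lower, and Cd14, a receptor for bacterial lipopolysaccharide, went from a mean of 2.80 to 84.9 while Csf1r, the receptor that macrophages need to survive, went from 16.8 to 5.92. Between the injured groups 1 of the 7 was called higher with preconditioning (Csf1r) and 1 lower (Cd14). These 2 were named after their values were seen. Over all genes 41.6% were called higher and 30.1% lower in normoxic injury, and 24.7% and 17.4% between the injured groups. In each group 4 of 6 adipose markers stayed under an FPKM of 1, but not the same 4. The 6 summed to 1.09 to 9.94, 4.84 to 13.1, 8.14 to 11.4 and 3.17 to 3.82 in the same order of groups. Of the 2 tested, Cidec was called higher in normoxic injury (1.77, limma adjusted p = 6.83e-05). It was lower in preconditioned against normoxic RIRI (-0.97, limma adjusted p = 0.0115), and Cfd was called in neither comparison. The skeletal muscle markers found in the table, 4 of 5, summed to at most 0.178. The part of neutrophils, macrophages and adipose tissue in the Pdk4 values was not tested.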

How the data were processed

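Kidney RNA from 12 mice was sequenced (TRIzol, VAHTS Universal V10 kit, DNBSEQ-T7, a single batch number, per the labels). The authors deposited 1 table of FPKM per gene symbol; the submitters' processing notes name HTSeq, DESeq2 and mm10 without roles, and neither the aligner nor the gene annotation is named in these sources. Proteomic data of the study were not analysed here.

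A gene was kept where 3 or more of the 12 libraries had an FPKM of 1 or above. Contrasts came from 1 fit of 4 group means to log2(FPKM + 1) by limma 3.58.1 (R 4.3.3), its spread following mean expression, checked on simulated data, and calls used a Benjamini-Hochberg adjusted p under 0.05. Because a pseudocount of 1 is added, changes of low genes are understated. Whole reads were recovered from FPKM steps for all 25553 genes (within 0.01 of a read), and totals differed by at most 0.0225% from the depth read from low genes. Alternatives were another pseudocount (0.1), other filters (none, FPKM 5), rescaling by median ratios or quantiles, fits of the compared groups alone, without the trend or with a replicate block, and omission of single libraries. As added alternatives, limma voom was run on these reads, and both replicate 2 RIRI libraries were left out.

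The 10 genes and all gene and marker lists were chosen with earlier results of these data known, so their counts are descriptions. Of each list, at most 4 called genes per comparison were named, from those with the smallest adjusted p in either comparison with normoxic RIRI. Not every such gene was named. The 5 genes nearest in profile to Pdk4 and to Pdha1 were named as well. Pdp1, Pdpr, Dld and Pdhx were all named as parts of the complex, Pdhx without a call. Genes of cofactor supply are not reported here. Positions and promoters are from RefSeq GRCm38.p6, in which 24328 symbols were found.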

Additional observations from a re-analysis of the deposited data

Results flagged for a closer look

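For 5 of the 10 genes the effect of injury differed between preconditioned and normoxic mice by the interaction term of limma. The difference in effect, preconditioned minus normoxic, was -2.97 for Pdk4, 0.89 for Pdp2, 0.73 for Pdk2, 0.49 for Pdk3 and 0.34 for Mpc2 on the log2 scale, with adjusted p values of 0.0109 to 0.0426. No cause was tested.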

How the results depend on the processing

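For the 10 genes, 22 alternatives (21 for the interaction) gave 1090 comparisons with the reported values, of which 1010 kept direction and call, 62 lost a call, 5 gained one and 13 changed sign. The counts of 1 gene higher and 9 lower in normoxic injury held in all 22, and the single lower call between the injured groups held as well. Calls of the latter comparison ranged from 3 to 5 higher when 1 library was left out. Against preconditioned sham, 0 to 1 genes were higher when 1 library was left out, and 1 was without both replicate 2 RIRI libraries (Pdk4). The count of 9 lower in that comparison ranged from 7 to 9 when 1 library was left out and from 8 to 9 in the other alternatives. For the interaction, no filter, which tests more genes, gave 1 positive and 0 negative calls, and leaving out 1 library gave 1 to 4 positive calls.

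None of the sign changes concerned a called value. With median-ratio rescaling they were Mpc1 between the injured groups (-0.0033) and, between the sham groups, Pdhb (-0.021), Dlat (-0.013) and Pdp2 (-0.0338), the last also with quantile normalization (-0.012). Without both replicate 2 RIRI libraries the interaction of Dlat was -0.029. Leaving out 1 library gave ranges of -0.020 to 0.14 for Mpc1 between the injured groups, -0.042 to 0.13 for Pdp2 between the sham groups, and -0.24 to 0.070 (Pdk1) and -0.0065 to 0.19 (Dlat) for the interaction. The cause was not tested.

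Same-numbered libraries did not deviate together: correlations of deviations from group means over genes were -0.25 to 0.17, 4 of 18 over 0.1, and 5 of 12 libraries correlated best with their own number. With the replicate block, Pdhb lost its call between the injured groups (adjusted p = 0.0524), leaving 3 genes higher, and Mpc2 lost that of the interaction (adjusted p = 0.0665). Median-ratio rescaling moved the median of all genes in normoxic injury from 0.10 to -0.002. The share of all calls that were higher went from 58.1% to 49.9% there, with quantile normalization 51.2%. Between the injured groups it went from 58.7% to 48.2% under both, against preconditioned sham from 63.0% to 49.4% and 51.1%, and between the sham groups from 44.2% to 23.9% and 23.3%. The precision of all values is that of 3 kidneys a group.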

Other observations

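The enzyme relatives of pyruvate dehydrogenase fell with injury. Of 9 genes of other 2-oxo acid dehydrogenases with their kinase and phosphatase, 9 were called lower and 0 higher in normoxic injury, with a median of -0.90, where 30.1% of all genes were called lower. Between the injured groups 8 were called higher with preconditioning and 0 lower, with a median of 0.41, where 24.7% of all genes were called higher. Dhtkd1, which acts in lysine breakdown, fell by 1.71 ± 0.13 (SE, n = 3 per group, limma adjusted p = 2.67e-07), and Dbt, the E2 of the branched-chain complex, was at 29.8 to 30.4 FPKM in normoxic sham, 10.5 to 13.3 in normoxic RIRI and 19.5 to 23.8 in preconditioned RIRI. The branched-chain kinase Bckdk fell by 0.68 ± 0.12 in normoxic injury (limma adjusted p = 0.000322). Pdk1, Pdk2 and Pdk3 fell there too, in contrast to Pdk4. Of 3 mitochondrial deacylases 2 were called lower, and Sirt3, which deacetylates mitochondrial enzymes, was at 54.2 to 57.0 in normoxic sham, 16.3 to 17.4 in normoxic RIRI and 22.4 to 28.5 in preconditioned RIRI.

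Of 19 HIF-1 targets other than Pdk1, 7 were called higher and 5 lower in normoxic injury, shares near those of all genes (41.6% and 30.1%). In preconditioned against normoxic RIRI 3 were called higher and 5 lower, where 24.7% and 17.4% of all genes were. The glucose transporter Slc2a1 rose by 2.27 ± 0.15, hexokinase Hk2 by 2.27 ± 0.12 and the peptide hormone Adm by 2.98 ± 0.16 (SE, limma adjusted p = 9.39e-08, 1.74e-08 and 2.56e-08), while Pdk1 and Bnip3, a mitophagy receptor, fell.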
